A study of Homo sapiens with 23 samples.

Results

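The genes described here were MYC, MYCN and MYCL, their partner MAX, and MXD1, MXD3, MXD4 and MNT, which also pair with MAX. These 8 genes were chosen by name, with earlier results of these data known. All 8 passed the filter on low counts that left 16370 genes for the comparison. Their RNA was measured in SCi-NCCITs, which are NCCIT embryonal carcinoma cells carrying a doxycycline-inducible dCas9-KRAB and, expressed all the time, 2 sgRNAs against SVA retrotransposons. RNA came from 3 libraries of SCi-NCCITs without doxycycline and 3 libraries of SCi-NCCITs treated with 2 µg/mL doxycycline for 72 hours. H3K9me3, the histone mark that KRAB leads to, was profiled by ChIP-seq in 2 libraries without and 2 libraries with doxycycline, and in 1 library of NCCITs that lack dCas9-KRAB. ChIP-seq of YY1 added 2 libraries per condition and that of OCT4 1 library per condition, all from SCi-NCCITs. Around MYC, peaks and de-repressed SVAs were read within 150 kb on each side of the gene.

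SCi-NCCITs were a stable line selected with drugs after integration of piggyBac vectors. Copies of LTR5Hs also carry the site that the sgRNAs match. No library analysed here came from doxycycline-treated cells that lacked the sgRNAs or dCas9-KRAB, so effects of doxycycline and of dCas9-KRAB cannot be told apart. The labels do not say whether replicates were separate cultures, and the p-values measure only the spread between these libraries. In bulk RNA, fewer cells of a type and less RNA per cell cannot be told apart.

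MYC proteins bind DNA and act on transcription as dimers with MAX, mostly at E-boxes, and drive ribosome production, nucleotide synthesis and cell cycle genes. MXD proteins and MNT compete with them for MAX and recruit SIN3 corepressors to the same sites. MYC sustains growth and self-renewal in pluripotent cells, and MYCN is the family member typical of embryonic and embryonal carcinoma cells.

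The libraries carried between 14683468 (replicate 1 without doxycycline) and 47862394 estimated counts on genes. With doxycycline, 2858 of 16370 genes (17.5%) were differentially expressed at an adjusted p under 0.05 in edgeR's quasi-likelihood test, 1389 downregulated (8.49%) and 1469 upregulated (8.97%). The median log2 fold change of all genes was -0.00. In 37.0% of genes the values of one condition did not overlap with those of the other. When single libraries were left out, the number of differentially expressed genes ranged from 1396 without replicate 2 with doxycycline to 3260. It was 1468 and 1748 without replicates 2 and 3 of the untreated cells, and 1749 without replicate 1 with doxycycline.

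The MYC genes were all downregulated. These 3 were the only members called, against 8.49% of all genes called in that direction. Since the members were chosen with earlier results known, this is a description only. MAX, the MXD genes and MNT did not pass the test. The 3 MYC genes passed it in the main comparison and in each of the 14 alternatives run, and none of the other 5 passed it in any.

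MYC (ENSG00000136997, hg19 chr8:128747680-128755197, plus strand) encodes the family member first found as a cellular oncogene. Its level in CPM, counts scaled to the size of the library, was 27.2, 23.4 and 23.2 without doxycycline and 13.6, 13.9 and 17.7 with it. Every library with doxycycline was below every library without, and replicate 3 was the highest of the treated ones. Such a lack of overlap, in either direction, was seen in 3 of the 8 members and in 37.0% of all genes. The CPM level fell by 38.5%, a log2 fold change of -0.70 (SE 0.112, n = 3 per condition, edgeR adjusted p = 0.00343). Over the alternatives, the log2 fold change of MYC ran from -0.83 to -0.63 and the adjusted p from 4.26e-07 to 0.0238.

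MYCN (ENSG00000134323, hg19 chr2:16080672-16087129, plus strand) was the most abundant member. It measured 138.2, 125.8 and 127.5 CPM without doxycycline and 88.5, 83.9 and 83.7 CPM with it. The conditions did not overlap, and the treated libraries lay close together. MYCN fell by 34.5% on the CPM scale (log2 fold change -0.61, SE 0.0572, edgeR adjusted p = 0.00016).

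MYCL (ENSG00000116990, hg19 chr1:40361100-40367928, minus strand), which encodes L-MYC, measured 18.6, 16.1 and 15.6 CPM without doxycycline. With doxycycline it measured 10.7, 9.13 and 8.74 CPM, again with no overlap. Its log2 fold change of -0.80 (SE 0.104, edgeR adjusted p = 0.00107) corresponded to a fall of 42.7% in CPM, and the 95% interval of the linear fold, 0.487 to 0.674, overlapped with those of MYC (0.516 to 0.733) and MYCN (0.599 to 0.716). The differences between the 3 genes were not tested. No counts of the MYCL pseudogenes MYCLP1 and MYCLP2 are given here, and whether their reads entered the counts of MYCL was not tested.

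**Figure D1:**
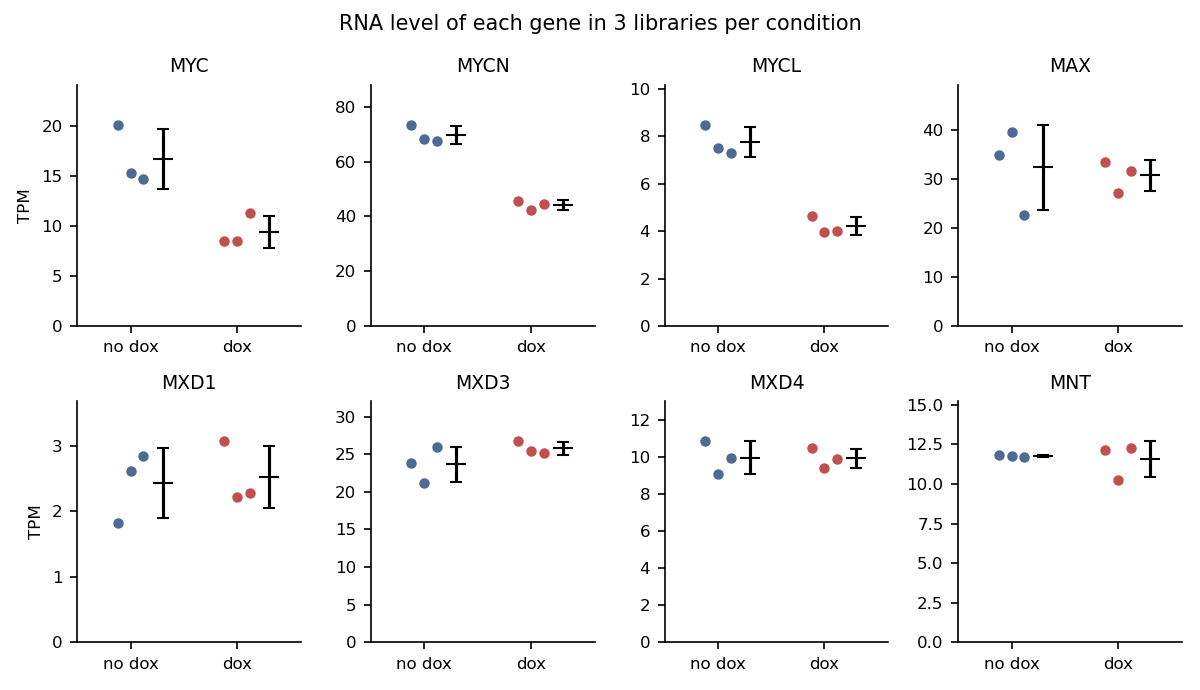
RNA level of the 8 genes in TPM (counts scaled to transcript length and library size, linear axis) in each of 3 libraries without and 3 with doxycycline, points in replicate order, with the mean and SD beside them. For MYC, MYCN and MYCL, every treated library lies below every untreated one, and for the other 5 genes the conditions overlap.

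MAX, with which each of the others can pair, measured 31.1 ± 3.72 CPM without and 29.5 ± 2.09 CPM with doxycycline (mean ± SD, n = 3 each). Its log2 fold change was -0.07 with a 95% interval from -0.28 to 0.15 (edgeR adjusted p = 0.66). The MAX level in TPM, which is also scaled to transcript length, was less even between replicates, at 34.9, 39.6 and 22.7 TPM without doxycycline and 33.4, 27.3 and 31.6 TPM with it. The untreated libraries alone spanned all of the treated ones.

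The members that compete with MYC for MAX were measured at similar levels in both conditions. MXD3 was at 18.0 ± 1.98 CPM without and 20.4 ± 1.7 CPM with doxycycline, a log2 difference of 0.19 with a 95% interval from -0.03 to 0.41. MXD1, which many cell types induce as they differentiate, was at 8.88 ± 1.08 and 10.1 ± 1.09 CPM, with a log2 interval from -0.09 to 0.42. MXD4 was at 26.1 ± 2.61 and 26.4 ± 0.991 CPM, with a log2 interval from -0.16 to 0.20. MNT, which is expressed in most cell types, was at 28.5 ± 1.23 and 28.3 ± 1.29 CPM, with a log2 interval from -0.15 to 0.14. The edgeR adjusted p of these 4 genes was between 0.217 and 0.97. The intervals leave room for a rise of up to 34.2% in MXD1 CPM and 32.8% in MXD3 CPM, and for smaller changes of MXD4 and MNT.

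Beyond the members, 5 further factors of the network were read from the same fit. None was called by edgeR, 3 of the 5 had an unadjusted p under 0.05, as did 32.5% of all genes, and DESeq2 called 1 of them, MGA. MGA, which carries a T-box and pairs with MAX in a repressive complex, was at 75.9, 99.1 and 85.7 CPM without and 60.4, 69.3 and 80.5 CPM with doxycycline (log2 fold change -0.32, edgeR adjusted p = 0.095), and the conditions overlapped. MLX, the MAX-like partner of the glucose-sensing Mondo proteins, was at 59.7 ± 1.2 and 65.7 ± 1.48 CPM (log2 fold change 0.14, edgeR adjusted p = 0.087). MLXIPL, also called ChREBP, was at 2.88 ± 0.609 and 4.03 ± 0.334 CPM (log2 fold change 0.47, edgeR adjusted p = 0.0849). MLXIP, also called MondoA, and MXI1, a further MXD protein, had log2 fold changes of -0.06 and 0.07.

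**Figure D2:**
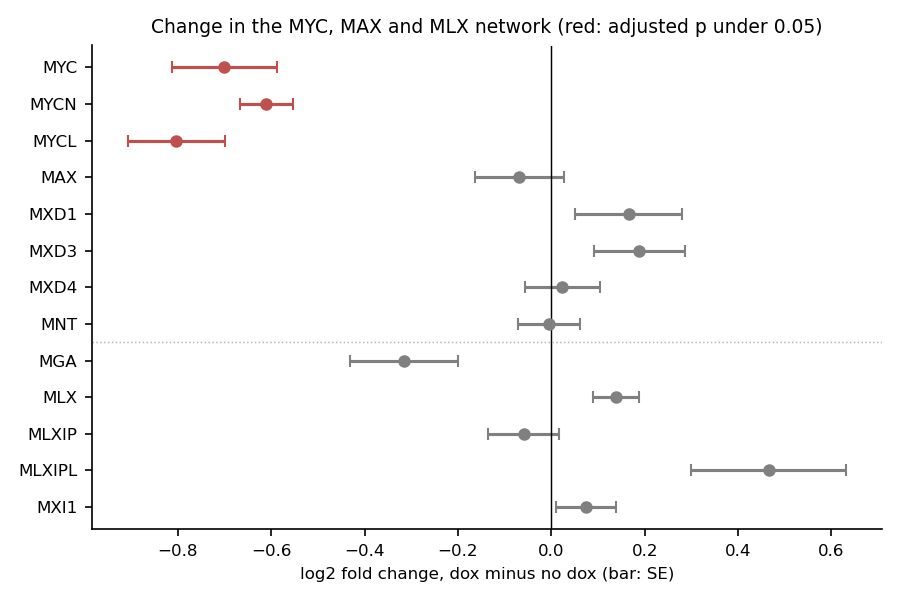
log2 fold change of CPM with against without doxycycline (x axis) for the 8 genes and, under the dotted line, 5 further network factors, with bars for the standard error of the edgeR fit. MYC, MYCN and MYCL (red, adjusted p under 0.05) lie between -0.80 and -0.61, and the other 10 genes (grey) between -0.32 and 0.47.

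Per length, MYCN was the highest member without doxycycline at 69.8 ± 3.23 TPM (mean ± SD, n = 3). It was followed by MAX at 32.4 ± 8.71, MXD3 at 23.6 ± 2.35, MYC at 16.7 ± 3.0, MNT at 11.8 ± 0.0809, MXD4 at 9.96 ± 0.877, MYCL at 7.76 ± 0.641 and MXD1 at 2.43 ± 0.534 TPM. Among neighbours in that order, only the libraries of MAX and MXD3 overlapped. With doxycycline MYCN remained the highest at 44.2 ± 1.71 TPM, above MAX at 30.8 ± 3.17 TPM. MYC, at 9.43 ± 1.62 TPM, then stood below MNT (11.6 ± 1.14 TPM) and MXD4 (9.92 ± 0.536 TPM), and its libraries overlapped with those of both.

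Summed over MYC, MYCN and MYCL, the level was 102.1, 91.1 and 89.5 TPM without and 58.8, 54.8 and 59.8 TPM with doxycycline. MXD1, MXD3, MXD4 and MNT together measured 48.3, 44.7 and 50.4 TPM without and 52.4, 47.4 and 49.6 TPM with doxycycline. The MYC sum thus stood at 94.2 ± 6.87 TPM against 47.8 ± 2.85 TPM for MXD1, MXD3, MXD4 and MNT without doxycycline. With it, the sums were 57.8 ± 2.69 and 49.8 ± 2.54 TPM. The second sum leaves out MXI1 and MGA, described above. MYCN made up 74.1 ± 1.90% of the MYC sum without and 76.4 ± 1.77% with doxycycline, and these ranges overlapped.

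The annotation used listed 64 transcripts of the 8 genes in the files, of which 33 passed the filter. Of 66421 transcripts tested, 439 (0.661%) were called by edgeR, and 1 of them was of a member. This was ENST00000281043 of MYCN, which carried 98.4 to 100% of the TPM of MYCN in every library. It measured 72.3, 68.1 and 66.8 TPM without and 45.4, 42.3 and 44.05 TPM with doxycycline (log2 fold change of counts -0.60, edgeR adjusted p = 0.0161). The call rested on all 6 libraries, since no member transcript passed when any one of them was left out, and with a replicate block none passed either.

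For MYC, kallisto placed nearly all reads on a pair of coding transcripts. Both had an unadjusted p under 0.05 in edgeR, as did 9 of 33 tested member transcripts in all and 11.8% of all transcripts tested. ENST00000377970 had a log2 fold change of -0.67 and ENST00000524013 of -0.73, with edgeR adjusted p-values of 0.308 and 0.391. Their shares of MYC varied from library to library: ENST00000377970 held 28.3, 51.9 and 59.9% of the MYC TPM without doxycycline and 46.1, 46.6 and 51.9% with it. For MYCL, ENST00000372815 (log2 fold change -1.05, edgeR adjusted p = 0.0839) and ENST00000372816 (-0.98, adjusted p = 0.141) did not pass the test, nor did ENST00000397332 (-0.39, adjusted p = 0.484). With at least 10 counts required in every library, ENST00000372815 passed the test (adjusted p = 0.0399).

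The tested transcripts of MAX had log2 fold changes of both signs, and none passed the test. ENST00000358402, the most abundant one, held 38.5, 37.2 and 52.4% of the MAX TPM without doxycycline and 32.5, 31.5 and 26.4% with it. All treated libraries were below all untreated ones, by 12.6 percentage points on average (exact two-sided permutation test, p = 0.1, the smallest that 3 against 3 can give, adjusted over the 8 members p = 0.64). Without untreated replicate 3, the library with the highest share, the difference was -7.76 points. In TPM, ENST00000394606, annotated as a target of nonsense-mediated decay, measured 1.54, 2.48 and 2.75 without and 5.31, 4.37 and 4.34 with doxycycline (log2 fold change of counts 1.08, edgeR unadjusted p = 0.00421, adjusted p = 0.156). ENST00000284165, a coding transcript, measured 1.49, 1.5 and 1.11 TPM without and 1.84, 1.89 and 2.15 TPM with doxycycline (log2 fold change of counts 0.58, edgeR adjusted p = 0.287). For the other 7 genes, the share on the most abundant transcript moved by between -4.69 and 1.49 percentage points, with exact permutation p-values of 0.3 or above. These shifts depended on single libraries, and with one left out they ran from -7.72 to 8.09 points for MYC, from -11.6 to 1.85 for MXD1, from -1.39 to 4.64 for MXD3 and from -8.16 to -2.46 for MYCL. The files hold no estimate of the error that kallisto makes in dividing reads between isoforms. In simulated data the transcript fit recovered 4.95% of log2 changes of 1, so a transcript that did not pass may still have changed.

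**Figure D3:**
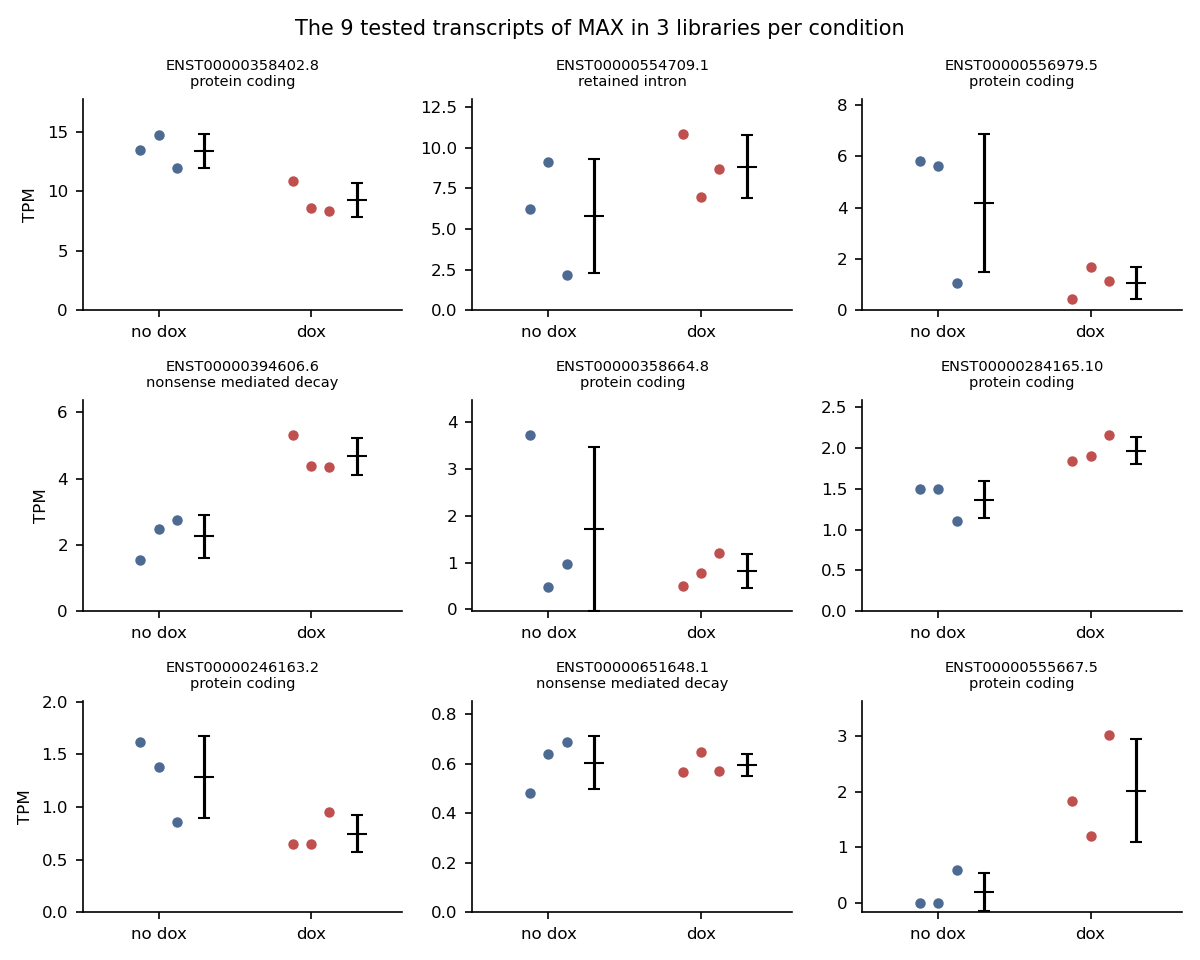
TPM (linear axes, own scale per panel) of the 9 transcripts of MAX that passed the filter, in each of 3 libraries without and 3 with doxycycline, with mean and SD beside the points. ENST00000358402 is lower and ENST00000394606, ENST00000284165 and ENST00000555667 are higher in every treated library than in every untreated one, and no transcript passed the adjusted threshold.

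The list of de-repressed SVAs holds 751 intervals. Of all genes tested, 11.3% had such an SVA within 150 kb, as did 4 of the 8 members. The nearest SVA of MYCL, SVA_D_r40, is listed as 28 bp (hg19 chr1:40378120-40378147). It lay in an intergenic stretch 10192 bp upstream of the gene, the shortest distance of any member. The nearest SVA of MYCN, SVA_D_r143, is listed as 12 bp and was in an intron of NBAS, 397880 bp away. For MYC the nearest SVA was 104534 bp away, for MAX and MNT 109519 and 146822 bp, for MXD4 419157 bp, for MXD1 1217528 bp and for MXD3 6153051 bp.

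The stretch at the SVA of MYCL is shown because it is the SVA closest to a member. Its listed interval had an H3K9me3 peak only with doxycycline. The stretch is the plus strand of GRCh37, chr1:40378060-40378207, with 60 bases on either side, and capitals mark the listed SVA interval.
SVA_D_r40 (MYCL): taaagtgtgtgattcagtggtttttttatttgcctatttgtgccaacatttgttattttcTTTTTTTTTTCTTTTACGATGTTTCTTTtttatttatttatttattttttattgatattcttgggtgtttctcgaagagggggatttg
The interval itself is a T-rich tract.

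Within 150 kb of MYC the list has 1 SVA, SVA_E_r137 (hg19 chr8:128643126-128643146), listed as an interval of 21 bp before the start of the gene. Its interval and those of the SVAs nearest to MYCN and MYCL each overlapped an H3K9me3 peak in every library with doxycycline. In no library without it did a peak overlap any of these intervals. Whether the SVA sequence runs beyond these short intervals was not tested, so peaks beside an interval cannot be placed on or off the SVA. Among all 751 SVAs, 136 (18.1%) were covered in both treated and neither untreated SCi-NCCIT library, as were 21 of the 141 shorter than 200 bp (14.9%). The peak over SVA_D_r40 at MYCL had a fold enrichment of 19.1 and 10.9 in the treated replicates. In replicate 1 of the untreated cells a peak of 11.2-fold already lay within 1000 bp of it, and none in replicate 2 or in NCCITs. At SVA_D_r143 of MYCN the peaks reached 5.48 and 6.70, and both untreated libraries had a peak within 1000 bp, of 4.45 and 4.33. At SVA_E_r137 of MYC the covering peaks reached 12.5 and 3.83, and a peak within 1000 bp was present in all 3 libraries without doxycycline, at 3.67 in NCCITs and at 4.45 and 6.21 in SCi-NCCITs. Treated replicate 2 also had a peak of 8.21-fold beside the SVA of MYC, stronger than the one covering it. Both treated libraries also had a further peak within 1000 bp of the SVA of MYCN. At MYC and MYCN, H3K9me3 thus lay beside the listed interval in untreated SCi-NCCITs, and in treated ones a peak covered it.

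The nearest SVAs of MAX, MXD4 and MNT showed no such pattern, and the more distant ones of MXD1 and MXD3 were not read. SVA_E_r181 near MAX and SVA_F_r247 near MXD4 were covered in replicate 1 of both conditions and in replicate 2 of neither, and SVA_E_r197 near MNT had no H3K9me3 peak within 1000 bp in any library. SVA_F_r475, the next SVA to MYC at 417531 bp, was covered in all 5 H3K9me3 libraries.

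YY1 peaks at these SVAs were few. Near SVA_D_r40 of MYCL, a YY1 peak was present within 1000 bp in both untreated libraries (4.24-fold, and 4.71-fold over the SVA itself in replicate 2) and in neither treated one. Near SVA_D_r143 of MYCN, replicate 2 of each condition had a peak, of 3.76 and 4.15. SVA_E_r137 of MYC had no YY1 or OCT4 peak within 1000 bp in any library.

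In the window of 307518 bp around MYC, H3K9me3 peaks numbered 4 in NCCITs, 2 and 2 in untreated and 4 and 9 in treated SCi-NCCITs. None touched the MYC gene. Of these 21 peaks, 16 had their summit between 102.9 and 123.3 kb before the start of MYC. They lay either at chr8:128640198-128645019, on and around SVA_E_r137, or at chr8:128623961-128626487, farther from MYC and apart from the SVA. The strongest was the one over the SVA in treated replicate 1. The difference rested on weak peaks and on distance, since it was 0 with a −log10 q of at least 5 and turned to 0.5 fewer peaks with doxycycline within 50 kb of MYC. With 2 libraries against 2 an exact test cannot go below p = 0.333, and none was run.

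YY1, a zinc finger factor that binds promoters and enhancers, had 9 and 14 peaks in the window without and 13 and 23 with doxycycline. The treated lists were also longer genome-wide, with 82005 and 115673 peaks against 56370 and 76098, and with the same number of peaks taken from each list the window held 3.5 fewer peaks with doxycycline than without. A YY1 peak at the start of MYC was present in all 4 libraries. Its highest fold enrichment was 6.16 and 5.46 without and 7.68 and 3.61 with doxycycline, so the conditions overlapped. The strongest site of the window lay 75.0 kb after the start of MYC, with 12.7 and 11.7 without and 18.1 and 19.0 with doxycycline. There the treated libraries were higher than both untreated ones.

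OCT4 (POU5F1), the pluripotency factor, had 11 peaks in the window without and 7 with doxycycline, in 1 library each. All 7 sites with doxycycline were also sites without, among them the YY1 site at 75.0 kb, where OCT4 reached 9.96 without and 4.19 with doxycycline. The OCT4 peaks at the start of MYC, of 7.27 at 827 bp and 4.0 at 1428 bp downstream, were present only without doxycycline. The OCT4 list with doxycycline held 23352 peaks against 50775 without, and with equal numbers of peaks the window held the same number in both conditions.

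**Figure D4:**
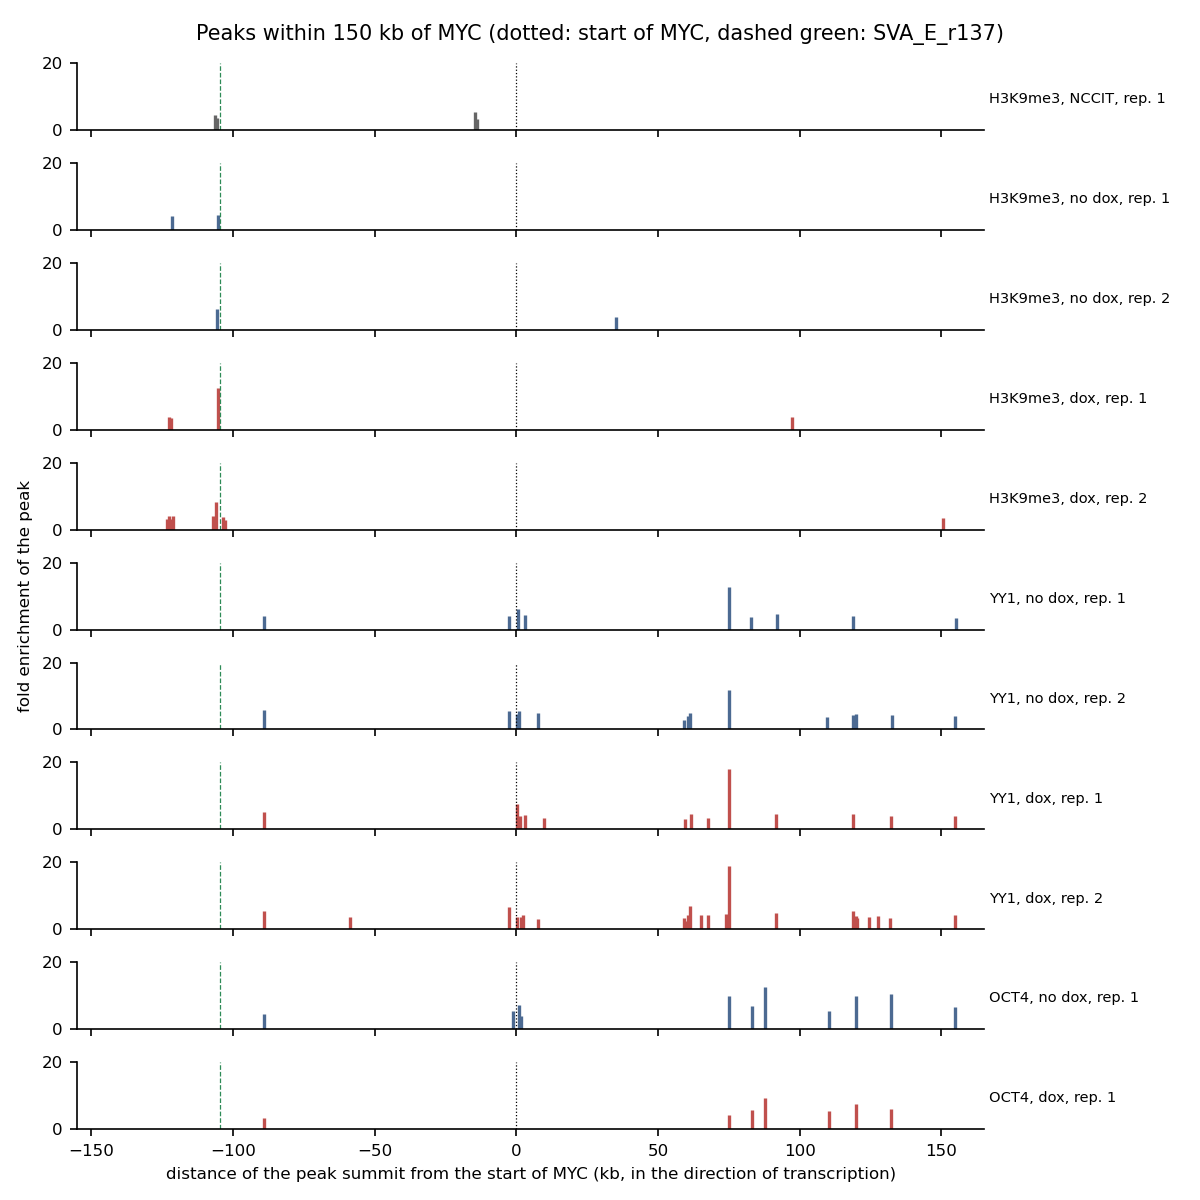
Peak summits within 150 kb of MYC by distance from its start (x axis, kb, negative before the start), with the fold enrichment of each peak as bar height (y axis), 1 track per ChIP-seq library. The dashed line is SVA_E_r137 and the dotted line the start of MYC, where no H3K9me3 track has a peak and all 4 YY1 tracks do.

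At their own promoters, taken as 1000 bp around any annotated start, no member had an H3K9me3 peak in any of the 5 libraries, where 8.80% of all tested genes did in NCCITs, 14.5 and 11.6% in untreated and 12.1 and 12.5% in treated SCi-NCCITs. YY1 was at 7 and 8 of the 8 promoters without and at 7 and 8 with doxycycline, where 72.1, 69.3, 76.6 and 78.1% of all tested genes had a peak. MNT had the strongest mean YY1 promoter peak among untreated libraries (31.0- and 20.7-fold without, 28.4- and 26.2-fold with doxycycline). MAX followed at 10.9 and 29.0 without and 16.5 and 26.6 with doxycycline, and its untreated replicates differed most. YY1 at MXD4 was 10.98 and 5.9 without and 18.8 and 13.3 with doxycycline, higher in both treated libraries. MXD1, at 7.40 and 9.63 without and 11.1 and 10.6 with doxycycline, was also higher in both treated libraries. At MYCN the YY1 peak was 8.48 and 6.70 without and 10.1 and 8.08 with doxycycline, with overlap. MYCL and MXD3 had the weakest YY1 promoter peaks, none above 4.05-fold, and each lacked one in 1 library.

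OCT4 was at 7 of the 8 promoters without doxycycline, where 47.0% of all tested genes had a peak, and at 2 with it, where 9.44% did. The members with an OCT4 peak in both libraries were MXD1, at 8.45-fold without and 3.76-fold with doxycycline, and MYCN, where the treated peak (5.61-fold) had its summit 3163 bp downstream of the untreated one (7.59-fold). MXD4 had none in either library. The share with an OCT4 peak fell over all genes as well, and the single libraries allow no replicate error.

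The reference promoters of RefSeq (GRCh38.p14, from 250 bases before to 50 after the start) included 7 of the 8 members. The E-box CACGTG, to which MYC and MAX bind, occurred in those of MXD4 and MNT, and in 7.26% of 35116 promoters. The letters GCCATNTT of the YY1 motif occurred in that of MNT, from position -3 to 4 around the start, and in 6.58% of promoters. The octamer ATGCAAAT of OCT4 occurred in that of no member and in 1.77% of promoters. For each member only the first promoter listed was searched, while the shares are over all 35116 promoters. Both strands were searched, and a match is a match of letters only. The 250 bases before the starts of MXD4 (chr4:2262110-2262359, minus strand) and MNT (chr17:2401061-2401310, minus strand) are shown as the members with an E-box, in capitals, in the direction of transcription. Their build differs from that of the peaks.
MXD4: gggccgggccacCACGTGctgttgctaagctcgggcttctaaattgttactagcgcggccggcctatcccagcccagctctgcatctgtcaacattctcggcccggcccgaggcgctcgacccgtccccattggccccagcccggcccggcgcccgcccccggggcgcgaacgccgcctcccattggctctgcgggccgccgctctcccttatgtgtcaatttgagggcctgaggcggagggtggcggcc
MNT: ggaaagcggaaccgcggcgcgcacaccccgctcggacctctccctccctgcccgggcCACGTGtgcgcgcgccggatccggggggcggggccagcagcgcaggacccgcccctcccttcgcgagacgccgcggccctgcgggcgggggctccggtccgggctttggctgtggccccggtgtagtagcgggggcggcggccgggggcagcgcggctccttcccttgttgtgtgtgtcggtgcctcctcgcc
Counted from the start, the E-box begins at position -238 in MXD4 and -193 in MNT.

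Genes known as targets of MYC were read from the same fit by lists. Of 30 targets in nucleotide synthesis, metabolism and growth, 6 were downregulated and 1 was upregulated, with a median log2 fold change of -0.13. The glycolytic enzyme ENO1 fell from 7172 ± 153 to 3033 ± 230 CPM (log2 fold change -1.24, edgeR adjusted p = 3.46e-06), and MCM4, a subunit of the replicative helicase, from 131 ± 4.12 to 56.1 ± 16.7 CPM (-1.23, adjusted p = 0.00138). PKM, pyruvate kinase, rose from 1237 ± 43.2 to 1842 ± 13.2 CPM (0.57, adjusted p = 0.000106). The share called, 23.3%, stood beside 17.5% of all genes. Of 29 tested targets in ribosome biogenesis, 4 were downregulated (13.8%, against 8.49% of all genes) and none was upregulated, with a median of -0.06. WDR43 and NOP58, both part of the machinery that processes ribosomal RNA, had log2 fold changes of -0.31 each, and the nucleolar proteins NPM1 (-0.26) and NCL (-0.25), named after their values were seen, were the other 2.

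Of 10 genes known to be repressed by MYC, none was called by edgeR, 1 had an unadjusted p under 0.05, against 32.5% of all genes, and DESeq2 called 1, GADD45A, named after its values were seen. The median log2 fold change of this list was 0.16, and 1 of the 10 had a negative value, the cell cycle inhibitor CDKN1A (-0.22), also named after its values were seen, at 9.07, 8.99 and 8.92 CPM without and 9.64, 6.51 and 6.996 CPM with it. Of 24 cofactors and ubiquitin ligases of MYC and MXD proteins, 4 were downregulated (16.7%, against 8.49% of all genes), none was upregulated and the median was -0.01. They were TFAP4, an E-box factor that MYC induces (log2 fold change -0.38), the ubiquitin ligase HUWE1 (-0.33) and, named after their values were seen, the corepressors SIN3A (-0.30) and NCOR1 (-0.29). Their number was 2 when replicate 2 or 3 without or replicate 1 or 2 with doxycycline was left out.

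Of 3 targets of the Mondo proteins, 2 were downregulated, as were 8.49% of all genes. TXNIP, which restrains glucose uptake, was at 1658 ± 129 CPM without and 1089 ± 129 CPM with doxycycline (log2 fold change -0.61, edgeR adjusted p = 0.0024), and its relative ARRDC4 was at 77.9 ± 3.77 and 47.0 ± 4.38 CPM (-0.73, adjusted p = 0.000272). Of the genes beside MYC and MYCN, 3 were tested and 2 were downregulated, against 8.49% of all genes. They were LRATD2 near MYC (-0.25) and DDX1 near MYCN (-0.20). POU5F1B, named after its values were seen, did not pass (log2 fold change -0.05, edgeR adjusted p = 0.912), and its conditions overlapped. Neither LRATD2 nor DDX1 passed without replicate 2 or 3 of the untreated cells or without replicate 1 or 2 of the treated ones. Without treated replicate 3, 1 neighbour was called. PVT1, CASC11, MYCNOS and further noncoding neighbours were not analysed here. The kit named for the RNA libraries keeps strand, but the sources used here do not say whether the counting used it, so counts of MYCN may include reads of its antisense partner MYCNOS.

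Of 15 pluripotency and embryonal carcinoma markers, which define the labelled cell type, 8 were downregulated (53.3%, against 8.49% of all genes), 7 did not pass the test and none was upregulated, with a median log2 fold change of -0.30. TDGF1, a co-receptor of NODAL, fell from 193 ± 6.96 to 88.1 ± 6.43 CPM (log2 fold change -1.13, edgeR adjusted p = 8.33e-06), and L1TD1, an RNA-binding protein of pluripotent cells, from 766 ± 41.4 to 499 ± 26.2 CPM (-0.62, adjusted p = 0.000257). POU5F1, named after its values were seen, did not pass and was at 239.9, 177.4 and 170.9 CPM without and 198.9, 169.6 and 169.6 CPM with doxycycline, with overlap. The 15 genes summed to between 4455 and 4818 CPM without and between 3561 and 3866 CPM with doxycycline.

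Of 18 markers of other cell types, 13 were tested, 3 were upregulated (23.1%, against 8.97% of all genes) and none was downregulated. They were GATA6, an endoderm factor (0.963 ± 0.264 to 2.60 ± 0.154 CPM), TUBB3, a neuronal tubulin (37.6 ± 4.87 to 48.6 ± 0.358 CPM), and NEUROG2, a neurogenic factor, named after its values were seen (0.396 ± 0.0884 to 0.746 ± 0.111 CPM). Without treated replicate 2, 1 was called. The 13 summed to between 399 and 494 CPM without and between 387 and 435 CPM with doxycycline. AFP, CGA, PTPRC, SOX17 and TBXT did not pass the filter, with at most 9.5 estimated counts in any library. The part of these marker changes in the fall of MYC, MYCN and MYCL was not tested.

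**Figure D5:**
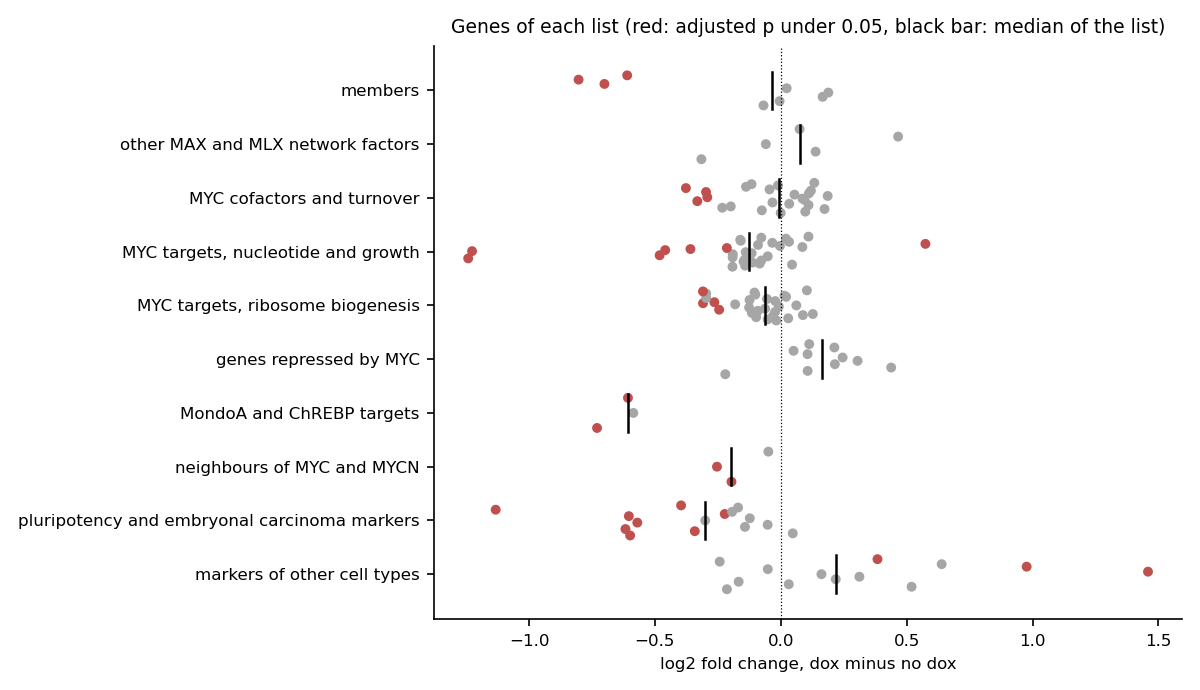
log2 fold change of CPM with against without doxycycline (x axis) for every tested gene of each list, with the median of the list as a black bar and genes at an adjusted p under 0.05 in red. The 3 MYC genes lie left of -0.6, apart from the other members, and ENO1, MCM4 and TDGF1 are the lowest of all genes shown.

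Across the 6 libraries, the genes with the pattern most like that of MYC were STK4 (r = 0.998), AMPD3 (0.996) and APOC1P1 (0.993), by Pearson's r of log2 CPM among 13875 genes. AMPD3, an AMP deaminase, was at 5.73, 4.86 and 4.55 CPM without and 2.53, 2.47 and 3.25 CPM with doxycycline. STK4, a kinase of the Hippo pathway, was at 69.9, 67.7 and 66.7 CPM without and 57.4, 57.7 and 62.3 CPM with doxycycline. The most opposite were IER3IP1 (-0.997), F8A1 (-0.994) and the checkpoint kinase gene CHEK2 (-0.993). All points share the same 6 libraries and the same contrast, so these values only describe likeness. Among the members, r with MYC was 0.927 for MYCN, 0.881 for MYCL, 0.350 for MNT and 0.281 for MAX. It was -0.0753 for MXD4, -0.647 for MXD3 and -0.731 for MXD1.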

How the data were processed

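RNA-seq, ChIP-seq of H3K9me3, YY1 and OCT4, and sample groups were taken from the labels. ChIP-seq reads were trimmed (TrimGalore!), mapped to hg19 by BWA MEM, filtered for mapping quality and duplicates, and turned into peaks per library by the authors. The peak caller is not given in the sources used here. The deposited peak lists give fold enrichment as a ratio and q-values as −log10 q, whose lowest value was 1.31 to 1.35. They give no read depth, so the depth behind a peak is unknown. The deposited RNA files hold estimated counts and TPM that the authors made with kallisto, per transcript.

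Estimated counts of the 88.2% of transcripts matched to GENCODE v44lift37 (95.9 to 96.0% of counts) were summed per gene and rounded. The quasi-likelihood test of edgeR 4.0.16 (R 4.3.3) followed filterByExpr and TMM, with Benjamini-Hochberg adjustment over all genes and a threshold of 0.05. Standard errors are the log2 fold change over the square root of F, and intervals cover 95% with the degrees of freedom of that fit. CPM values are normalised by TMM. DESeq2 1.42.0, limma 3.58.1 on log2(TPM + 1) and log2(TPM + 0.1), other filters, length-scaled counts, a replicate block and leaving out each library were alternatives, and for peaks a −log10 q of at least 5, other distances and equal numbers of peaks. Between libraries of the same condition, counts differed by 7.43 to 14.6 times the variance of counting alone. The fit was tested on simulated data with known changes. For genes it recovered 82.6% of log2 changes of 1, with 12 false calls among 173. For transcripts it recovered 4.95% of log2 changes of 1 and 53.4% of log2 changes of 3. Overlaps, sequences and exact permutation tests used Python 3.11.15, pandas 2.3.3 and scipy 1.17.1, and figures matplotlib 3.10.9. The de-repressed SVAs were the study's list of 751 intervals, and an overlap was at least 1 bp.

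The members and gene lists were chosen with earlier results of these data known. Named genes were the 8 members, the 5 further network factors, the called genes of each other list with the 2 largest rises and 2 largest falls at a mean of at least 1 CPM, and the 3 highest and 3 lowest correlations with MYC (log2 of CPM + 0.5). Genes named outside this rule are marked in the text. The HiChIP table was not used, since its 16 columns of values could not be assigned to conditions. Some sequence is not reported here.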

Additional observations from a re-analysis of the deposited data

How the results depend on the processing

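MYC, MYCN and MYCL kept their direction and their call under all 14 alternatives, and MAX, MXD1, MXD3, MXD4 and MNT passed the threshold under none. The number of all genes called was 1900 with length-scaled counts, 1727 and 1735 with limma on log2(TPM + 1) and log2(TPM + 0.1), and 1396 to 3260 with single libraries left out. Member transcripts called were 2 with at least 10 counts in every library, 0 with the replicate block and 0 with any library left out. The replicate numbers did not pair the samples (correlations of same-numbered deviations 0.235, 0.0888 and -0.0153), and with the replicate block 3316 genes were called. Of the other network factors, 1 was called by DESeq2, without a filter and with length-scaled counts, 2 with the replicate block, and 0 to 1 with libraries left out. Of the cofactors, 2 to 6 were called with libraries left out, and of the genes repressed by MYC 1 by DESeq2, with its size factors, without a filter, with at least 10 counts, and with the replicate block, and 0 to 1 with libraries left out. Of the neighbours, 0 were called with length-scaled counts, 1 with either limma fit, and 0 to 2 with libraries left out. Of the markers of other cell types, 1 was called with either limma fit and 1 to 3 with libraries left out. The cause of these shifts was not tested.

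The mean number of H3K9me3 peaks around MYC with minus without doxycycline was 0 at a −log10 q of at least 5, -0.5 within 50 kb, 0.5 within 500 kb, and 2 to 7 with libraries left out. For YY1 it was 2 at the stricter q, 1 within 50 kb, 12 within 500 kb, -3.5 with equal numbers of peaks, and 1.5 to 11.5 with libraries left out. For OCT4 it was -11 within 500 kb and 0 with equal numbers. Promoters of members with a peak differed by -0.5 for H3K9me3 within 5000 bp, and for YY1 by -1 at the stricter q, -0.5 within 250 bp and -0.5 to 0.5 with libraries left out. The listed intervals of the SVAs nearest to MYC, MYCN and MYCL, 104534, 397880 and 10192 bp from these genes, kept an H3K9me3 peak only with doxycycline. This held under the 5 alternatives added after seeing the data. At the same depth, 0.661% of transcripts and 17.5% of genes were called, and the depth of the peak lists is unknown.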
